A study of Oikopleura dioica with 67 samples.

Results

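The solute carriers described here are unigenes (assembled transcripts) of Oikopleura dioica, a planktonic tunicate that keeps its tail for life and secretes a filtering house. They comprise every unigene whose deposited symbol begins with SLC, a family number and a letter, with SLC25A5, SLC15A1 and SLC18A3 left out. This gave 381 of 19277 unigenes, under 192 symbols and in 46 families, and the rule used no measured value. The symbols are those the authors deposited, and a role given below is the role known for that symbol in mammals. Unigene sequences were not analysed here, and 75 symbols are carried by more than 1 unigene (264 unigenes in all), which may be gene copies, alleles or pieces of the same transcript. Their reads may be divided among them, so such members carry here the DN number of their assembly component where they are first described. For 6 unigenes the symbol names a protein that is not a carrier but binds or neighbours one (SLC4A1AP, SLC7A6OS, SLC9A3R1 and SLC9A3R2).

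Solute carriers are membrane proteins that move sugars, amino acids, ions, nucleotides, vitamins and metals across the cell surface and the membranes of organelles, either down a gradient or coupled to sodium, protons or an exchanged solute. Families are numbered by sequence and tend to share a kind of substrate, so that SLC25 holds the carriers of the inner mitochondrial membrane, SLC35 the nucleotide sugar carriers of the endoplasmic reticulum and Golgi, and SLC6 the sodium-coupled carriers of neurotransmitters and amino acids. In animals, carriers of the gut and excretory epithelia take up nutrients, those of neurons load and clear transmitters, and a set made by the mother supplies the egg.

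The study measured RNA by sequencing in wild-type animals of a Japanese laboratory strain kept at 20 °C. The hemisphere set holds 24 libraries, 4 each of animal hemispheres, vegetal hemispheres and whole embryos, at 8 cells and at 12 hours post-fertilization (hpf). The staged set holds 43 libraries, 3 for each of 13 stages (unfertilized egg, fertilized egg, 2, 4, 8, 16 and 32 cells, 1.5 hpf, 2.5 hpf tadpole, 3 hpf hatched larva, 5 hpf, 8 hpf and 10 hpf juvenile), 2 of adult females and 2 of adult males. How hemispheres were separated at 12 hpf is not stated in the labels, nor that replicates came from separate cultures, so the p-values measure the spread between these libraries only. No group carries a mutation or a treatment.

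Values are RPKM (reads per kilobase and library size), with the count of each unigene divided by its length and by the depth of the library, as the authors deposited them. Differences were tested with limma on log2(RPKM + 1) over every unigene above a low filter, which 357 members passed in the hemisphere set and 380 in the staged set, and a member is said to rise, fall or differ only where the Benjamini-Hochberg adjusted p over all unigenes tested was below 0.05. A difference on this scale understates the change of a low unigene. RNA was taken from whole animals or hemispheres, so fewer cells of a type and less RNA per cell cannot be told apart. The staged libraries held 7785352 to 95644620 reads, of which 18.9% to 49.0% aligned, and 6277 to 17384 unigenes reached 1 RPKM in a library.

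Several libraries stood apart. Vegetal 12 hpf library 3 held the animal-side members far above the other 3 vegetal libraries, and whole 8-cell library 6 held late members that the other 3 nearly lacked. Leaving both out changed the number of members that differed between the 12 hpf hemispheres from 221 to 234 and between whole embryos from 285 to 291. The deposited list of libraries has 2 blocks headed as separate sequencing runs. All tadpole and hatched libraries stand in one and all egg, 8-cell, juvenile and adult libraries in the other, so run and stage were separable only through the 5 and 8 hpf libraries. Quantile normalization lowered the median difference of all unigenes from 1.17 to -0.18 between 12 hpf and 8-cell whole embryos, from 0.73 to -0.04 between the sexes and from 0.30 to -0.20 between the 12 hpf hemispheres, on the log2 scale. Counts after that scaling therefore stand beside the main ones.

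**Figure D1:**
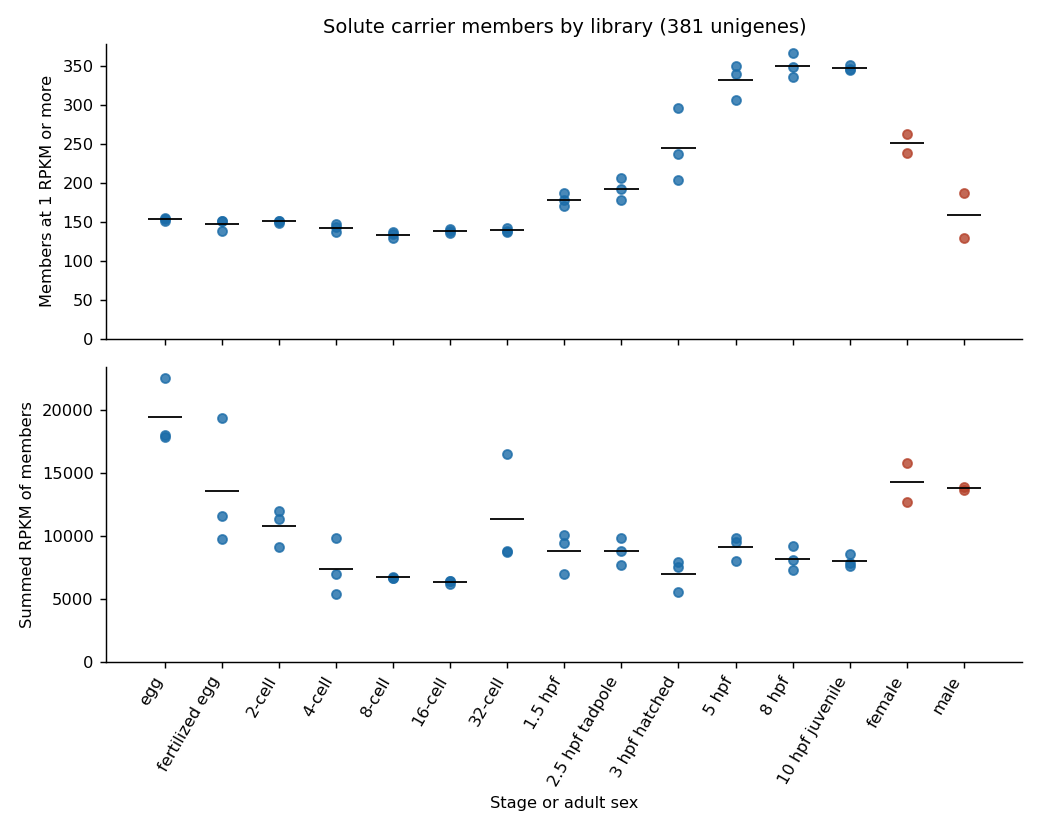
Number of members at 1 RPKM or more (top, vertical axis) and summed RPKM of all members (bottom, vertical axis) in each library of the staged set, by stage or adult sex (horizontal axis), with points for libraries and a line for the group mean. The summed level is highest in the egg, at a mean of 19510 RPKM, while the number of members in use is highest at 5 to 10 hpf.

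In the unfertilized egg 153 of the 381 members (40.2%) reached a mean of 1 RPKM, near the 42% of all unigenes. The top 5 members made up 80.2% of the members' summed RPKM. That share was 80.0% in adult males, 73.5% at 32 cells, 67.3% in adult females and 15.7% at 5 hpf, and was not taken over all unigenes. The highest member in the egg was Slc25a4 DN16859, the carrier that exchanges ATP for ADP across the inner mitochondrial membrane, at 10009, 9222 and 9428 RPKM. Next came 2 unigenes of Slc25a3, the mitochondrial phosphate carrier, of which DN34157 stood at 4776, 2491 and 2519 RPKM and DN18963 at a mean of 2438 RPKM. Both feed the ATP synthase, one with ADP and the other with phosphate. SLC25A6, another ADP/ATP carrier, and SLC20A2 DN14440, a sodium-phosphate carrier of the cell surface, followed at means of 204 and 190 RPKM. The summed RPKM of all members was 19510 ± 2692 (SD, n = 3) in the egg, 6345 ± 109 (SD, n = 3) at 16 cells and 8026 in the juvenile, levels that were not tested against each other.

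The number of carriers at 1 RPKM or more grew with that of all unigenes. It was 139 at 8 cells (36.5%, all unigenes 38.6%), 182 at 1.5 hpf (47.8%, 48.7%), 196 at 2.5 hpf (51.4%, 52%), 271 at 3 hpf (71.1%, 68.6%), 339 at 5 hpf (89.0%, 81.1%) and 356 at 8 hpf (93.4%, 88.0%). Of the 372 members that reached 1 RPKM at some stage, 121 (32.5%) had their highest mean at 5 hpf, against 20.4% of all unigenes, and 89 (23.9%) at 8 hpf, against 21.1%. The egg to 32-cell stages held the highest mean of 64 members (17.2%), against 24.5% of all unigenes. The first stage at 4 times the egg was 5 hpf for 97 members (25.5%, all unigenes 15.1%) and 3 hpf for 50 (13.1%, all unigenes 10.7%), and 164 never reached it. Over the 13 stages 367 of 380 members tested differed (96.6%, limma F-test), against 92.9% of all unigenes.

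Families peaked at different times. The nucleotide sugar carriers (SLC35) had their highest mean at 5 hpf in 24 of 32 members. The organic ion carriers (SLC22) did so in 15 of 32. On the amino acid list of SLC36, SLC38 and SLC43, 17 of 42 were highest at 8 hpf. That list holds 18 unigenes of SLC43A3, the symbol of a nucleobase carrier. The mitochondrial carriers divided, with 12 of 40 highest between the egg and 32 cells and 15 at 5 hpf, and the metal carriers likewise had 10 of 38 early and 8 in the juvenile. None of the 9 sodium-calcium exchangers was highest before 3 hpf. By the size of the range between stage means the foremost members were SLC31A2 (7.35 on the log2 scale), a relative of the copper carriers, SLC8A3 (7.34), a sodium-calcium exchanger, Slc25a1 (7.06), the mitochondrial citrate carrier, SLC38A7 DN16838 (6.96), a lysosomal glutamine carrier, Slc23a2 DN12173 (6.89), a vitamin C carrier, and SLC29A1 DN12768 (6.70), a nucleoside carrier.

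**Figure D2:**
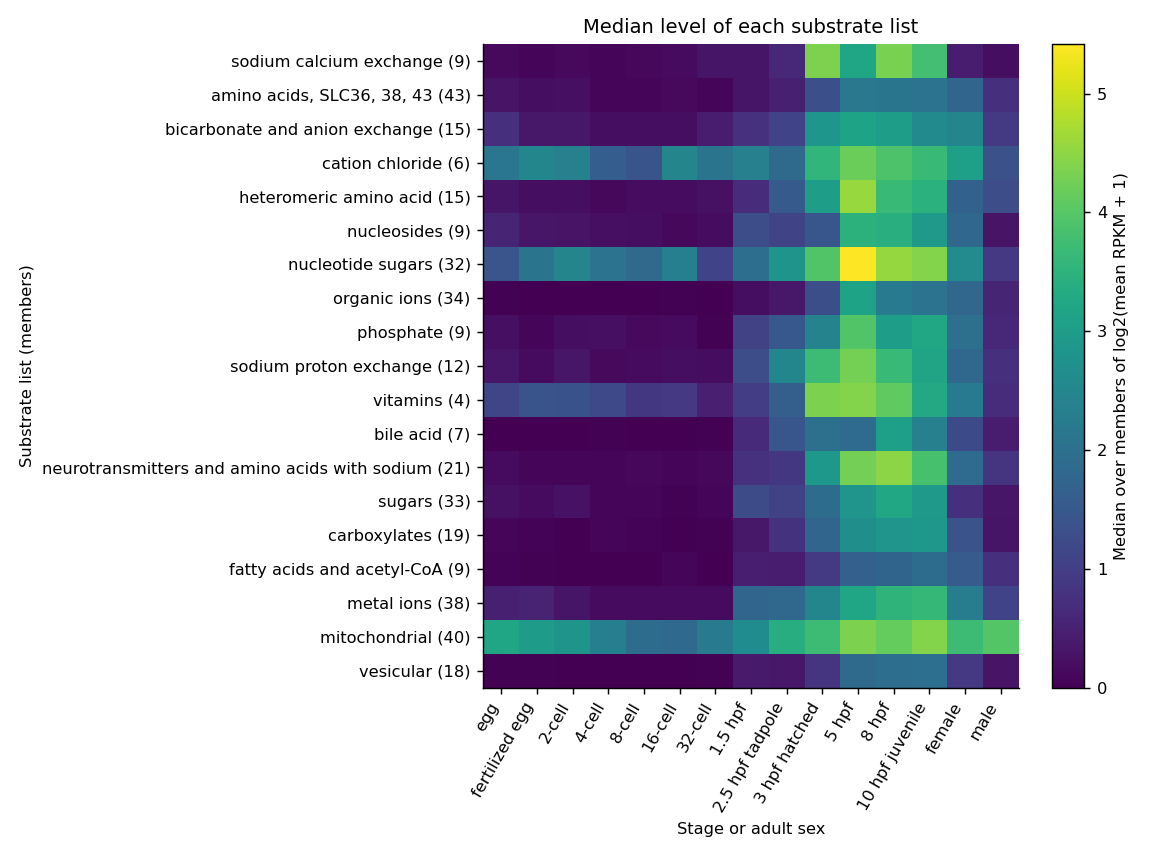
Heat map of the median over members of log2(mean RPKM + 1) for each substrate list with at least 3 members, apart from a mixed list of other families (rows, with the number of members) at each stage and adult sex (columns). Among the lists shown, apart from the mitochondrial, nucleotide sugar, cation chloride and vitamin lists, the lists are dark up to the 32-cell stage, all turn brighter from 3 to 5 hpf on, and the nucleotide sugar list is brightest at 5 hpf, where 24 of its 32 members have their highest mean.

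Slc25a3 changed unigene as well as level. The egg pair, DN34157 and DN18963, kept a narrow ratio to each other, 1.33 to 1.34 in the egg and 1.11 to 2.43 over all libraries. The third unigene, DN11722, supplied 0.02% to 0.144% of the RPKM summed over all 4 Slc25a3 unigenes in the egg, 44.3% to 49.5% at 5 hpf and 48.3% to 65.0% in the juvenile. It supplied 0.762% to 1.46% in adult females and 93.0% to 99.5% in adult males. The share at 3 hpf ran from 3.04% to 43.3%, so the 3 hatched libraries were not alike. The fourth, DN17290, was listed at 0 at 8 cells and reached a mean of 5.60 RPKM in the juvenile. Whether DN11722 and the pair are separate genes was not tested.

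Between the unfertilized egg and the 2.5 hpf tadpole, 112 of 380 members differed (29.5%), against 24.4% of all unigenes. Of these, 69 rose, against 13.6% of all unigenes, and 43 fell, against 10.8%. Under quantile normalization 50 rose and 56 fell, and with the run as a term 61 rose and 94 fell, so the balance of directions depends on both choices. SLC38A7 stood at 1.27, 1.93 and 1.06 RPKM in the egg and at 180, 148 and 132 RPKM in the tadpole. The groups lay far apart, with a difference of 6.0 ± 0.44 (SE) on the log2 scale (limma, adjusted p = 1.505e-13). SLC10A2 DN18719, under the symbol of the intestinal bile acid carrier, was listed at 0 in all 3 egg libraries and stood at 29.3, 24.3 and 34.5 RPKM in the tadpole (limma, adjusted p = 2.472e-14). SLC8A3 went from 0.111, 0.0217 and 0.175 RPKM to 16.0, 4.43 and 24.4 RPKM. The tadpole libraries of SLC8A3 differ among themselves but all exceed the egg, and the log2 difference was 3.59.

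The members that fell after fertilization included carriers of several kinds. SLC38A3 DN6220, a glutamine carrier, stood at 75.6, 118 and 52.2 RPKM in the egg and at 1.75, 5.66 and 1.24 RPKM in the tadpole, a log2 difference of -4.51 (limma, adjusted p = 5.751e-09). Slc12a9, of the cation-chloride family, stood at 27, 44.5 and 51.0 RPKM and then at 4.82, 1.24 and 1.90 RPKM. No library of either member overlapped between egg and tadpole. Slc10a2 DN9738 fell by 3.45, Slc25a3 DN18963 by 3.04, Slc5a8 DN20097, a sodium-coupled monocarboxylate carrier, by 3.04 and SLC6A3, the dopamine carrier, by 2.98 on the log2 scale. By list, 8 nucleotide sugar carriers of 32 rose and 2 fell. On the sugar list 7 of 33 rose and 8 fell, and of the mitochondrial carriers 7 of 40 rose and 7 fell. Quantile normalization turned these to 7 and 2, 5 and 6, and 5 and 6, and the run as a term to 3 and 2, 10 and 9, and 6 and 5. The sugar list goes by family number and also holds carriers of other solutes, such as Slc5a8.

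Some members rose in the tadpole and fell again by the juvenile. The tadpole against egg and juvenile against hatched larva comparisons share no library, but tadpole and hatched libraries belong to one sequencing run and egg and juvenile libraries to the other. Of the 69 members that rose in the tadpole, 20 fell between 3 and 10 hpf, 21 rose again and 28 did not pass. The comparisons were not crossed over all unigenes, of which 34.9% rose and 23.1% fell between 3 and 10 hpf. Whether carriers differ from other unigenes in this was not tested. With the run as a term 11 of the 20 kept both calls, and 4 other members gained both. SLC38A7 is among the 11, at 138, 136 and 150.0 RPKM at 1.5 hpf, in the run of the egg libraries, at 129, 110 and 51.4 RPKM at 3 hpf and 0, 0.169 and 0.593 RPKM in the juvenile. SLC10A2 DN18719, which also kept both calls, had means of 29.4 RPKM in the tadpole, 9.44 RPKM at 3 hpf and 1.54 RPKM in the juvenile. SLC48A1, a heme carrier, SLC25A6, and Slc30a9, of a zinc carrier family, kept both calls too, whereas SLC9A2, a sodium-proton exchanger, and Slc26a5 DN15684, an anion exchanger relative that serves as the motor of hair cells, did not. These 5 are named after their values were seen. In the other direction, of the 43 members that fell in the tadpole 15 rose later, 5 fell and 23 did not pass, again without a count over all unigenes.

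**Figure D3:**
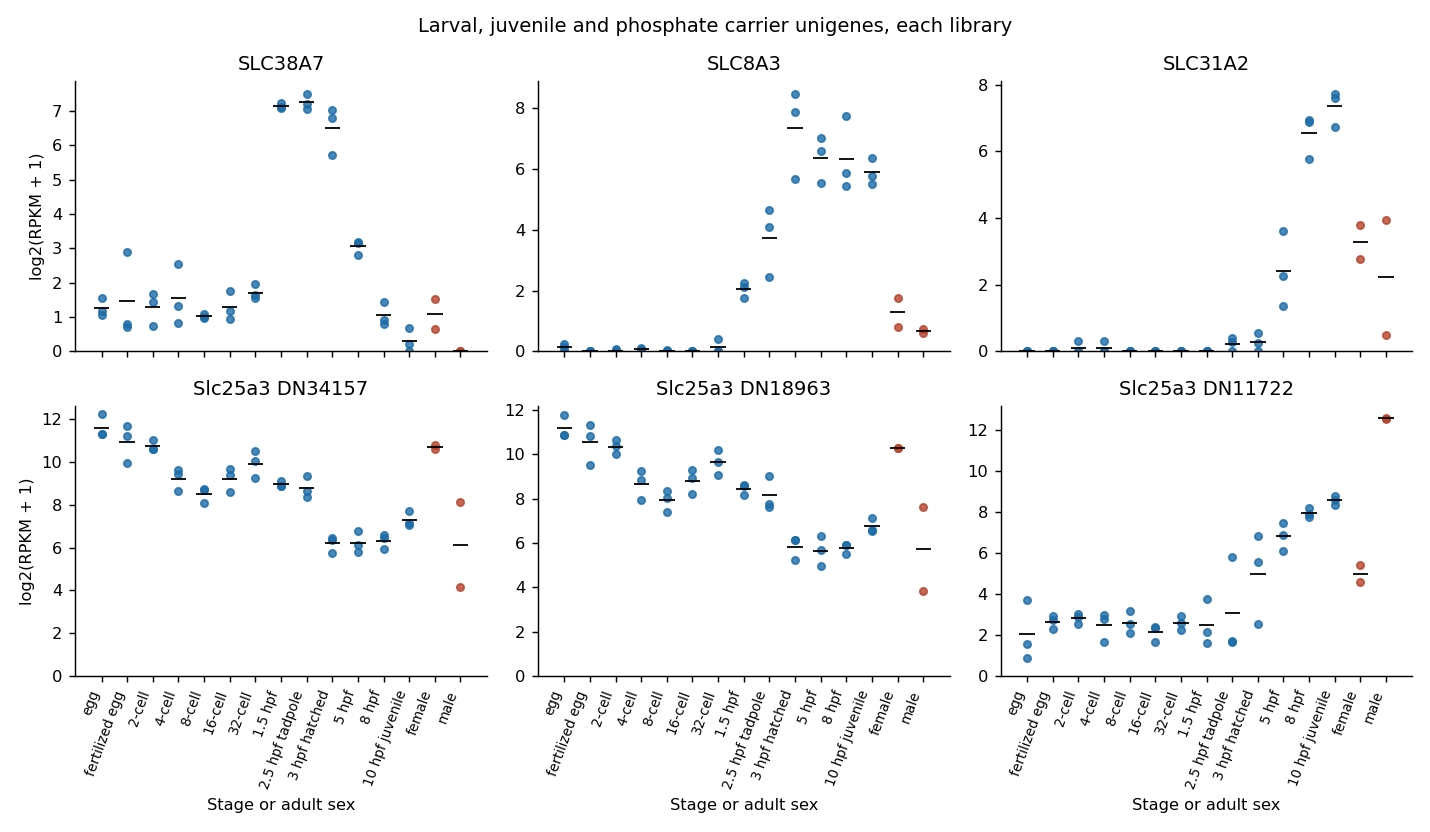
log2(RPKM + 1) (vertical axis) of SLC38A7, SLC8A3, SLC31A2 and 3 of the 4 Slc25a3 unigenes in each library of the staged set, by stage and adult sex (horizontal axis), with points for libraries and a line for the group mean. SLC38A7 has means of 141, 153 and 96.7 RPKM at 1.5, 2.5 and 3 hpf, SLC31A2 reaches 169 RPKM in the juvenile, and Slc25a3 DN11722 is highest in males.

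From the 3 hpf hatched larva to the 10 hpf juvenile, 229 of 380 members differed (60.3%), against 58.0% of all unigenes. Of these, 175 rose (46.1% of those tested, all unigenes 34.9%) and 54 fell (14.2%, all unigenes 23.1%). Under quantile normalization 120 rose and 71 fell, and with the run as a term 177 rose and 32 fell. SLC31A2 stood at 0, 0.197 and 0.453 RPKM at 3 hpf and at 193, 210 and 105 RPKM in the juvenile, a difference of 7.08 ± 0.50 (SE) on the log2 scale (limma, adjusted p = 1.684e-14). SLC38A4 DN14935, an amino acid carrier, went from 0.127, 0.461 and 0.688 RPKM to 75.6, 54.8 and 54.3 RPKM. All juvenile values of both members lie far above every larval one.

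The largest rises also included single carriers of nucleosides, fatty acids and amino acids. By list, 3 of 9 nucleoside carriers rose and 2 fell (2 and 2 under quantile normalization, 5 and 1 with the run as a term). On the fatty acid and acetyl-CoA list 3 of 9 rose and 1 fell (1 and 2, and 4 and 0). Of all unigenes 34.9% rose and 23.1% fell. Slc29a1 DN5256, an equilibrative nucleoside carrier, stood at 0, 0.105 and 0 RPKM and then at 51.3, 36.1 and 29.4 RPKM (log2 difference 5.24, limma, adjusted p = 2.438e-22). SLC27A2 DN20109, which takes up and activates fatty acids, went from 0, 0.0251 and 0.193 RPKM to 18, 24 and 19.3 RPKM. SLC7A9 DN12198, the light chain of a cystine and basic amino acid exchanger, rose from a mean of 7.26 to 136 RPKM. The juvenile values of Slc29a1 and SLC27A2 are even across libraries, while their larval values are close to 0.

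By substrate list the larva to juvenile changes were uneven in number and were not tested against each other. On the sugar list 20 of 33 rose and 1 fell (10 and 5 under quantile normalization). Of the SLC6 family 13 of 21 rose and 3 fell (11 and 3), and of the metal carriers 19 of 38 rose and 7 fell (15 and 8). On the amino acid list of SLC36, SLC38 and SLC43, 20 of 43 rose and 6 fell, which became 11 and 9. With the run as a term these counts were 14 and 1, 13 and 2, 18 and 4, and 21 and 4. Both the sugar and the amino acid list go by family number and hold carriers of other solutes. In the main fit SLC5A8 and SLC5A12, both monocarboxylate carriers, gave 5 rises each on the sugar list. SLC5A7, a choline carrier, gave 2 and SLC5A5, an iodide carrier, gave 1. SLC43A3, the symbol of a nucleobase carrier, gave 8 rises and 3 falls on the amino acid list. The sodium-proton exchange list, which also holds the SLC9A3R scaffolds, had 3 of 12 up and 4 down (3 and 6 under quantile normalization, 4 and 0 with the run as a term), and the cation chloride list 0 of 6 up and 1 down. The digestion markers (94 unigenes of proteases and lipases) moved in the same interval, from summed levels of 144 to 478 RPKM at 3 hpf, with 32 of 94 at 1 RPKM, to 8401 to 9929 RPKM in the juvenile, with 85 of 94. The muscle markers stood at 9723 to 12300 and 13360 to 21540 RPKM. The part of these cell types in the carriers' changes was not tested.

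Among the members that fell, SLC38A7 had the largest difference at -6.21 (limma, adjusted p = 1.8e-14). SLC25A6 stood at 570, 523 and 404 RPKM at 3 hpf and at 78.1, 86.6 and 80.3 RPKM in the juvenile, with no overlap. Slc22a2, an organic cation carrier, stood at 4.23, 17 and 71.1 RPKM and then at 1.69, 0.796 and 1.79 RPKM, so that its larval libraries spread widely while all exceed the juvenile ones. Without hatched library 1 the split became 148 up and 73 down.

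The juvenile set against the staged 8-cell embryo gave 312 of 380 members (82.1%), against 72.2% of all unigenes. Of these 279 rose and 33 fell, against 56.4% and 15.8% of all unigenes, and quantile normalization gave 128 and 88, with 21 members called in opposite directions. Slc23a2 stood at 0.0351, 0 and 0 RPKM at 8 cells and at 56.7, 91.0 and 72.9 RPKM in the juvenile. SLC6A5 DN13729, the glycine carrier of inhibitory neurons, was listed at 0 in the 8-cell libraries and stood at 22.4, 68.3 and 189 RPKM in the juvenile. SLC1A7, a glutamate carrier known from the retina, was likewise listed at 0 and stood at 91.6, 54.7 and 58.4 RPKM. The juvenile libraries agree for SLC1A7 and Slc23a2 and differ several-fold for SLC6A5.

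Among the members that fell over that interval, SLC48A1 stood at 561, 495 and 356 RPKM at 8 cells and at 27.2, 50.2 and 33 RPKM in the juvenile (log2 difference -3.66). Slc5a7 DN14425, the high-affinity choline carrier, stood at 41.4, 42.1 and 35.5 RPKM and then at 1.77, 5.46 and 7.33 RPKM. The other two unigenes of that symbol ran the other way, DN10582 from 0.132, 0.0399 and 0 RPKM to 9.15, 10.2 and 13.9 RPKM and DN12079 from a mean of 0.096 to 13.95 RPKM. Slc7a11 (-2.77), the cystine-glutamate exchanger, SLC2A13 DN17234 (-2.67), a proton-coupled inositol carrier, and SLC40A1 DN12205 (-2.41), the iron exporter, were also lower in the juvenile. The other unigene of each of the latter symbols rose, SLC2A13 DN24883 by 2.32 and Slc40a1 DN15904, listed at 0 at 8 cells, to a mean of 9.49 RPKM. The unigenes that ran the other way are named after their values were seen. Between whole 8-cell and 12 hpf embryos of the hemisphere set, SLC48A1 differed by -0.825 and did not pass. Its mean in those 8-cell libraries was 140 ± 91 RPKM (SD, n = 4). No Slc5a7 unigene was called lower there, while SLC2A13 and SLC40A1 each had 1 unigene called lower.

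The hemisphere set held a similar span, 8 cells to 12 hpf, in other libraries. Between whole embryos at 8 cells and at 12 hpf, 285 of 357 members differed (79.8%), against 79.1% of all unigenes. Of these 250 rose, against 56.3% of all unigenes, and 35 fell, against 22.9%, and quantile normalization gave 135 and 75, with 11 members called in opposite directions. SLC8A3 stood at 0.0527, 0.116, 2.41 and 2.30 RPKM at 8 cells and at 217, 347, 286 and 202 RPKM at 12 hpf, a difference of 7.08 ± 0.49 (SE) on the log2 scale (limma, adjusted p = 1.232e-11). SLC25A21, a mitochondrial oxodicarboxylate carrier, stood at 0.606, 0.222, 0 and 7.83 RPKM and then at 232, 283, 263 and 235 RPKM. The 12 hpf values are even, and the 8-cell value of 7.83 belongs to library 6.

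On the nucleotide sugar list (SLC35) 28 of 32 rose and none fell, with 23 and 2 under quantile normalization. The median difference was 3.05 (2.65), against 1.17 for all unigenes. This list goes by family number and also holds members of other or unknown substrate. Slc35d3 DN16643 stood at 0, 0, 0 and 2.44 RPKM at 8 cells and at 148, 288, 159 and 96.5 RPKM at 12 hpf. SLC35D1 DN9937, which carries UDP-glucuronic acid and UDP-N-acetylgalactosamine, rose by 6.57 and SLC35E3 DN11235, of unknown substrate, by 6.42 on the log2 scale. Each of these 3 has its highest 8-cell value in library 6. Organic ion carriers rose in 29 of 34 and fell in 2, which became 13 and 6. Mitochondrial carriers rose in 20 of 38 and fell in 7, which became 11 and 14.

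Among the members that fell were abundant carriers of the 8-cell embryo. Slc10a2 DN9738 stood at 156, 149, 123 and 200 RPKM at 8 cells and at 3.31, 2.02, 7.75 and 5.78 RPKM at 12 hpf, a log2 difference of -4.88 (limma, adjusted p = 7.46e-12). Slc25a3 DN34157 stood at 2007, 1217, 1807 and 2396 RPKM and then at 64.0, 67.5, 71.4 and 90.8 RPKM (-4.61), and DN18963 differed by -4.43. SLC38A3 DN6220 (-3.57), Slc18b1 DN13782 (-2.85), a vesicular polyamine carrier, and SLC36A1 DN11098 (-2.55), a proton-coupled amino acid carrier of lysosomes, were lower too. None of the 12 hpf libraries reached an 8-cell library in these members. The whole-embryo comparison and the juvenile against 8-cell comparison share no library, and of 356 members tested in both, 237 rose in both (66.6%, against 49.1% of the 15573 unigenes tested in both), 18 fell in both (5.06%, all unigenes 15.1%) and 2 went opposite ways (0.562%, all unigenes 1.25%). The log2 differences of both comparisons had a Pearson r of 0.77 across members and 0.81 across all unigenes, which are not independent replicates. Another 27 were called in the hemisphere set alone and 38 in the staged set alone. No Slc25a3 or Slc18b1 unigene was called lower in the juvenile against 8-cell comparison, while Slc10a2, SLC38A3 and SLC36A1 each had 1 unigene called lower. Slc25a3 DN34157 had a mean of 371 RPKM in the staged 8-cell libraries and 161 RPKM in the juvenile. Its mean in the whole 8-cell libraries of the hemisphere set was 1857 RPKM.

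At 8 cells no carrier was called between the hemispheres. None of 357 members differed between animal and vegetal hemispheres with limma, and none had an unadjusted p below 0.05, against 0.401% of all unigenes called. The smallest unadjusted p was 0.099 and the largest difference 0.71 on the log2 scale. With the replicate number as a block, under quantile normalization or with only the 8-cell hemispheres fitted, the number of members called was also 0. Slc25a4 had means of 3028 RPKM in animal and 3105 RPKM in vegetal hemispheres, and Slc25a3 DN34157 of 1806 and 1808 RPKM. Differences smaller than the spread of 4 libraries could not be seen.

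At 12 hpf the hemispheres differed in 221 of 357 members (61.9%), against 48.2% of all unigenes. Of these 143 were higher in the vegetal hemisphere, against 32.9% of all unigenes, and 78 in the animal hemisphere, against 15.3%, and quantile normalization gave 107 and 112. At 4-fold or more the counts were 92 and 35, together 127 members, against 24.4% of all unigenes. In 165 members no library of one hemisphere reached into the other, against 34.5% of all unigenes. The authors' deposited table of 2855 unigenes at 4-fold or more lists 100 members, 84 on the vegetal and 16 on the animal side, of which 99 passed here with the same direction at that size.

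**Figure D4:**
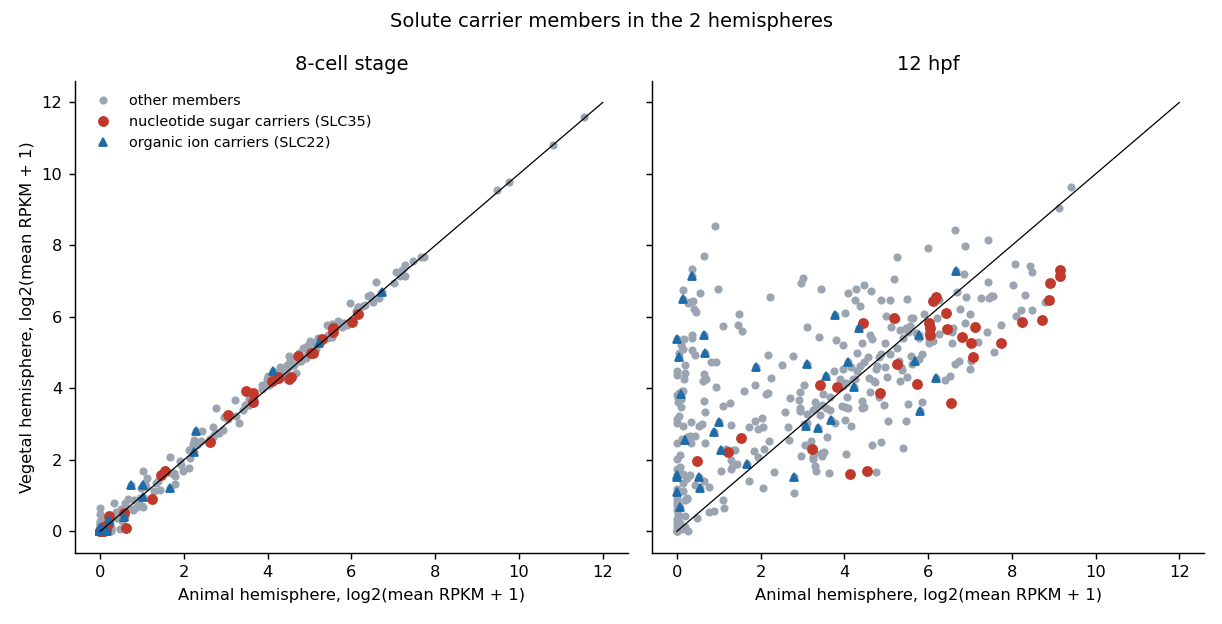
log2(mean RPKM + 1) of each member in animal (horizontal axis) and vegetal (vertical axis) hemispheres at 8 cells (left) and 12 hpf (right), with nucleotide sugar carriers and organic ion carriers marked and a line of equality. The points lie on the diagonal at 8 cells, where no member passed, and spread to both sides at 12 hpf, with 143 members higher in vegetal and 78 higher in animal hemispheres.

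The members with the largest vegetal differences carry amino acids and peptides. SLC7A9 DN18078 stood at 0.772, 0.780, 0 and 1.94 RPKM in animal hemispheres and at 240, 520, 397 and 338 RPKM in vegetal hemispheres, a difference of 7.69 ± 0.41 (SE) on the log2 scale (limma, adjusted p = 1.854e-13). Slc15a2, a proton-coupled carrier of short peptides, stood at 0.221, 0.0743, 0.663 and 1.34 RPKM and at 97.3, 267, 159 and 303 RPKM (log2 difference 6.97). Slc6a18, known as a neutral amino acid carrier of the kidney, stood at 0.435, 0, 0.0784 and 0.608 RPKM and at 105, 148, 211 and 177 RPKM (6.96). All 3 were near 0 in every animal library and above 90 RPKM in every vegetal one.

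Carriers of organic and carboxylic acids came next. Slc22a13 DN11891, an organic anion carrier, stood at 0, 0.184, 0 and 0.977 RPKM in animal and at 51.1, 75.8, 116 and 323 RPKM in vegetal hemispheres. SLC5A8 DN21041 stood at 0, 0.104, 0.139 and 0.222 RPKM and at 43, 161, 166 and 54.1 RPKM, and SLC22A5 DN17125, under the symbol of the carnitine carrier, at 0.0992, 0, 0 and 0.320 RPKM and at 47, 74.2, 127 and 110 RPKM. Their log2 differences were 6.49, 6.34 and 6.27. By list, 19 of 34 organic ion carriers were vegetal and 4 animal (12 and 6 under quantile normalization), and 10 of 18 carboxylate carriers vegetal and 1 animal (8 and 2). On the sugar list 18 of 32 were vegetal and 7 animal (14 and 9). That list also holds carriers of other solutes. Among them the monocarboxylate carrier SLC5A8 gave 5 vegetal and 1 animal call, and the choline carrier SLC5A7 gave 2 vegetal and 0 animal calls. SLC5A12, also a monocarboxylate carrier, gave 4 vegetal and 0 animal calls, and SLC5A5, an iodide carrier, gave 1 of each. The phosphate list held 5 vegetal members of 9 and 1 animal, with Slc34a2 DN33982, a sodium-phosphate carrier of gut and lung, at 0.954, 0, 0 and 0 RPKM and at 27.9, 93.7, 121 and 94.6 RPKM.

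Of all lists, the nucleotide sugar list (SLC35) had the most members on the animal side. That list goes by family number and also holds members of another substrate, such as Slc35b2, or of unknown substrate, such as SLC35E3. Of 32 tested, 17 (53.1%) were higher in the animal hemisphere and 6 in the vegetal hemisphere, with 20 and 1 under quantile normalization, and the median difference was -1.0 (-1.56), against 0.30 for all unigenes. Slc35b2 DN13446, which carries the sulfate donor into the Golgi, stood at 437, 716, 459 and 266 RPKM in animal and at 226, 52.9, 15.4 and 55.8 RPKM in vegetal hemispheres, a difference of -2.93 (limma, adjusted p = 5.943e-05). Slc35b1 DN17613, of the same subfamily, stood at 77.8, 139, 106 and 47.8 RPKM and at 38.9, 2.23, 0.411 and 2.30 RPKM (-4.14). SLC35E3 DN11235 stood at 374, 617, 283 and 415 RPKM and at 164, 13.1, 1.45 and 59.3 RPKM (-4.07). The hemispheres did not overlap, and the highest vegetal value of each was that of library 3. SLC35D3 DN15765 differed by -3.03. The 3 unigenes of Slc35c1, the GDP-fucose carrier, were all higher in the animal hemisphere, by -2.08 to -2.63, and are named after their values were seen.

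Other lists had animal members too, with 7 of the sugar list, 6 mitochondrial carriers, 6 of SLC6 and 10 metal carriers among them. Slc10a7, of the bile acid carrier family, stood at 101, 146, 179 and 81.2 RPKM in animal and at 64.8, 4.21, 2.56 and 17 RPKM in vegetal hemispheres, a difference of -3.33 (limma, adjusted p = 5.979e-05). SLC9A3R2, a scaffold and no carrier, differed by -3.38. The metal list was even, with 10 of 34 members on each side, but 6 vegetal and 16 animal under quantile normalization.

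Unigenes of 1 symbol did not all lie on the same side. Of 50 symbols with at least 2 members called at 12 hpf, 18 had members on both sides. The share among symbols outside the carriers was not counted, so the number is no trait of the carriers. SLC6A13, a carrier of GABA and taurine, had 3 vegetal and 4 animal members of 8. SLC6A13 DN19014 stood at 668, 410, 94.1 and 607 RPKM in animal and at 322, 5.64, 0.452 and 9.01 RPKM in vegetal hemispheres, whereas SLC6A13 DN11640 stood at 0.719, 2.04, 11.5 and 0.580 RPKM and at 75.1, 115, 103 and 80.0 RPKM. SLC7A9 had 3 on each side of 7, while SLC22A5 had 7 vegetal of 9 and SLC43A3 6 vegetal of 18, with no animal member. These sets were picked after their values were seen.

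Markers of other cells moved with the hemispheres. The digestion markers summed to 629 to 1031 RPKM in animal and 2869 to 8052 RPKM in vegetal hemispheres (42 and 50 of 94 at 1 RPKM, 15 and 10 at 0). The axoneme and sperm markers summed to 64.5 to 81.9 and 1274 to 2553 RPKM (9 and 41 of 63 at 1 RPKM, 27 and 2 at 0), the muscle markers to 1764 to 2981 and 4427 to 8811 RPKM (27 and 63 of 88), the germ line markers to 214 to 325 and 749 to 1323 RPKM, and the neuron markers to 199 to 349 and 442 to 636 RPKM. Their part in the result was not tested. In whole 12 hpf embryos the mean of SLC7A9 DN18078 was 94.7 RPKM, between those of the hemispheres, and the digestion markers summed to 1692 to 2191 RPKM, whereas the muscle markers, at 12770 to 18170 RPKM, exceeded both hemispheres.

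Of the transmitter carriers, SLC17A6 DN11522, the vesicular glutamate carrier, was listed at 0 in the staged 8-cell libraries and stood at 12.0, 15.4 and 7.53 RPKM at 5 hpf and 21.8, 21.8 and 20.7 RPKM in the juvenile. At 12 hpf it stood at 2.30, 2.63, 39.7 and 1.83 RPKM in animal and 20.2, 11, 10.3 and 8.44 RPKM in vegetal hemispheres, where animal library 5 lies far from the other 3 and no difference passed (limma, adjusted p = 0.099). SLC6A5 DN13729 stood at 23.7, 47.5, 41.8 and 28.4 RPKM and at 40.3, 61.4, 148 and 276 RPKM. Of the SLC6 family 10 of 19 members were vegetal and 6 animal (8 and 8 under quantile normalization), and of the vesicular list 4 of 16 vegetal and 5 animal. SLC17A5, a lysosomal sialic acid carrier, makes up 10 of the 18 members of the vesicular list. It gave 2 of those vegetal and 3 of those animal calls.

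The adult sexes differed in 188 of 380 members (49.5%), against 46.8% of all unigenes. Of these 163 were higher in females, against 40.2% of all unigenes, and 25 in males, against 6.61%. Quantile normalization gave 55 and 75, with 10 members called in opposite directions, so a general direction for the carriers depends on the scaling. A fit of the adult libraries alone gave 96 and 15. The 2 libraries of each sex limit the precision, and the male libraries held 130 and 188 members at 1 RPKM or more.

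Of the members higher in females, SLC38A3 DN6220 stood at 575 and 468 RPKM in females and at 0.365 and 0.348 RPKM in males, a log2 difference of 8.58 (limma, adjusted p = 6.336e-14). Slc10a2 DN9738 stood at 79.6 and 91.6 RPKM and at 0.458 and 0.510 RPKM, and Slc38a9 DN13418, the lysosomal amino acid sensor, at 214 and 208 RPKM and at 10.0 and 0.570 RPKM. No library overlapped. Zinc carriers were among them, with SLC39A7 DN11199 at 67.4 and 159 RPKM against 0.835 and 0 RPKM and Slc39a10 at 50 and 58.8 RPKM against 0.753 and 0.574 RPKM. Of 153 members at 1 RPKM or more in the unfertilized egg, 118 were higher in females and 8 in males, and of the 227 others tested 45 and 17. The shares were 77.1% and 5.23% for the first and 19.8% and 7.49% for the rest, against 76.3% and 3.96%, and 12.6% and 8.64%, over all unigenes. Under quantile normalization the members' counts became 51 and 20, and 4 and 55.

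Another set of members was higher in males. Slc12a4 DN16450, a potassium-chloride cotransporter, stood at 0.274 and 0.120 RPKM in females and at 296 and 740 RPKM in males, a log2 difference of -8.62 (limma, adjusted p = 3.415e-15). The highest stage mean of Slc12a4 DN16450 was 3.39 RPKM, at 3 hpf. Slc25a3 DN11722 stood at 41.8 and 23 RPKM and at 6311 and 6123 RPKM (-7.60, adjusted p = 6.768e-08), whereas Slc25a3 DN34157 stood at 1576 and 1753 RPKM in females and 275 and 16.6 RPKM in males. The phosphate carrier unigenes that lead in females are the egg pair, and the one that leads in males is the late one.

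Other male members carry amino acids, anions and choline. Slc25a29 DN12747, a mitochondrial carrier of basic amino acids, stood at 0 and 0.196 RPKM in females and at 73.5 and 114 RPKM in males. SLC26A11 DN15113, an anion carrier, stood at 0.120 and 0.261 RPKM and at 50.6 and 71.6 RPKM, and Slc44a2, a choline carrier, at 7.63 and 8.41 RPKM and at 495 and 422 RPKM. SLC43A3 DN15973, under the symbol of a nucleobase carrier, stood at 0.125 and 0.610 RPKM and at 40.9 and 93.6 RPKM. Slc9c1, known in mammals as a sodium-proton exchanger of sperm, stood at 0.0465 and 0.0169 RPKM and at 41.5 and 40.8 RPKM, and is named after its values were seen. In each of these the male libraries lie above both female ones.

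Of the 25 members higher in males, 14 were mitochondrial carriers, which is 35% of the 40 tested, with 12 higher in females (16 and 3 under quantile normalization). Nucleotide sugar carriers were higher in females in 20 of 32 and in males in 1, which became 2 and 5. Metal carriers were higher in females in 19 of 38 and organic ion carriers in 17 of 34, with no male member in either list, which became 7 against 8 and 4 against 6. The axoneme and sperm markers summed to 156 to 251 RPKM in females and 13910 to 16130 RPKM in males, and the germ line markers to 347 to 651 and 9.68 to 75.6 RPKM (19 and 8 of 19 at 1 RPKM). The muscle markers summed to 48850 to 84060 RPKM in males, of which 99.6% to 99.9% came from creatine kinase unigenes. The part of these cells in the carriers' differences was not tested.

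**Figure D5:**
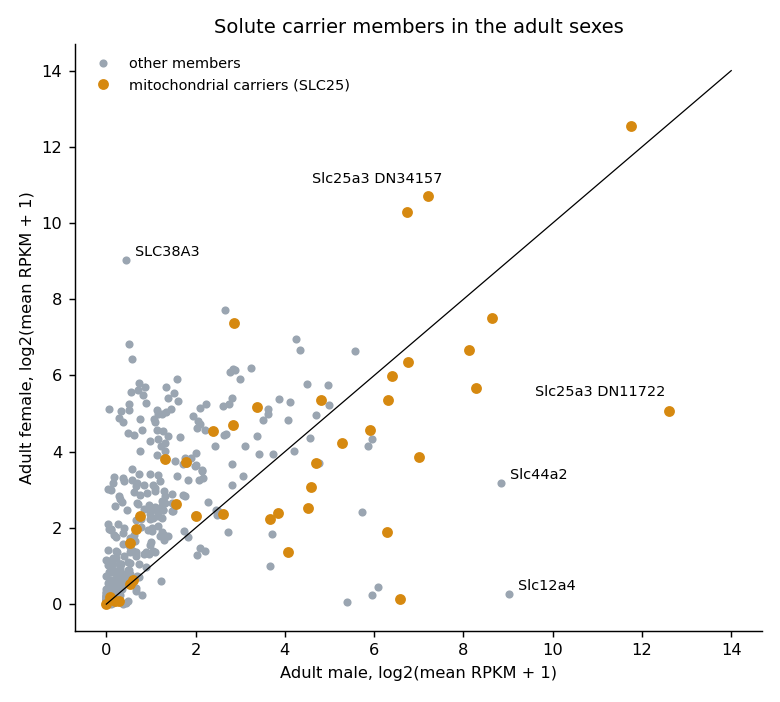
log2(mean RPKM + 1) of each member in adult males (horizontal axis) and adult females (vertical axis), with 2 libraries a sex, mitochondrial carriers marked and a line of equality. SLC38A3 DN6220 lies far above the line and Slc12a4 DN16450 and Slc25a3 DN11722 far below it, with 163 members called higher in females and 25 in males.

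Other transport genes, chosen by the spelling of their symbols, did not all move with the carriers. The 12 unigenes of the proton pump, which acidifies organelles, showed no call between the 12 hpf hemispheres (also 0 under quantile normalization), against 48.2% of all unigenes. From egg to tadpole 8 fell and none rose (6 fell under quantile normalization), against 10.8% and 13.6% of all unigenes. In females 12 of 12 were higher (10 of 12), against 40.2% of all unigenes. Of 39 ABC transporters, pumps driven by ATP, 12 were vegetal and 5 animal at 12 hpf, which quantile normalization turned to 8 and 12. The main counts lie near the shares of all unigenes, 32.9% vegetal and 15.3% animal. Of 14 aquaporins, water channels, 13 rose between 8 cells and 12 hpf and none fell (6 and 0), against 56.3% and 22.9% of all unigenes. The 3 unigenes of the mitochondrial pyruvate carrier all fell from egg to tadpole (2 under quantile normalization), as did Slc25a3 DN18963.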

How the data were processed

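RNA of O. dioica was sequenced in 24 hemisphere-set libraries (not strand-specific, per the labels' protocols) and 43 staged libraries (strand-specific). The authors deposited RPKM per unigene, made from reads mapped with HISAT2, per the submitters' processing notes. The version and the counting tool are not given in the sources used here. Read counts of the staged libraries and the percent aligned were deposited by the authors and used only to describe depth, and 7 libraries have joined sample numbers in that list, so they may pool samples. Per the file headers, the authors also deposited ratios (fold changes) of the 12 hpf hemispheres and k-means cluster scores. The 2.5 hpf stage is headed 2 hpf in the table. A second staged sheet holds 11 of 43 columns with another column's values, so the first was used, and 148 per-sample columns without a label were not used.

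Members and lists were chosen with earlier results of these data known. Values of 1 RPKM or more in at least 4 hemisphere libraries (15697 unigenes, 357 members) or 2 staged libraries (18704 unigenes, 380 members) were needed for a test. limma 3.58.1 (R 4.3.3) was fitted to log2(RPKM + 1) over all libraries of a set, with Benjamini-Hochberg adjustment at 0.05, after it was tested on simulated data. Tables and figures used Python 3.11.15, pandas 2.3.3, numpy 2.4.6 and matplotlib 3.10.9. In the hemisphere set, hemispheres with the same number deviated together (correlations 0.550 to 0.701 at 8 cells, 0.144 to 0.246 at 12 hpf), while whole embryos did not (-0.047 to 0.113). Named members are, in each comparison, the 6 with the largest difference in each direction among called members without overlap, up to 2 members a list by the F-test, and the 5 highest in egg, juvenile and each sex. Depth in reads is known for the staged set alone. Other settings were another pseudocount (0.1), no filter, quantile normalization, only the groups compared, leaving out libraries, the replicate block, the second sheet's symbols and, chosen after seeing the data, the sequencing run as a term and the members without the 6 that are not carriers.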

Additional observations from a re-analysis of the deposited data

Results flagged for a closer look

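In 54 groups of 4 libraries, 8 had a library far from the other 3, and chance flags about 1 in 20 groups. The groups are members measured in the same libraries and so are not independent, and the count cannot be set against that rate. Library 6 of the whole 8-cell embryos was far above the others for SLC25A21 (7.83 RPKM), Slc35d3 DN16643 (2.44 RPKM), Slc10a7 (1.75 RPKM), SLC35D1 DN9937 (2.13 RPKM) and SLC35E3 DN11235 (10.6 RPKM). Vegetal 12 hpf library 3 held Slc35b1 DN17613 at 38.9 RPKM, whole 12 hpf library 4 held SLC35D1 DN9937 at 250.4 RPKM, and whole 8-cell library 4 held SLC36A1 DN11098 at 155.0 RPKM.

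The vegetal minus animal difference itself changed between 8 cells and 12 hpf in 166 of 357 members, against 35.6% of all unigenes (limma interaction). On the log2 scale the change was 7.88 for SLC7A9 DN18078, 7.02 for Slc6a18, 6.92 for Slc15a2, 6.49 for Slc22a13 DN11891, 6.34 for SLC5A8 DN21041 and 6.27 for SLC22A5 DN17125. It was -4.27 for Slc35b1 DN17613, -3.58 for SLC35E3 DN11235, -3.46 for SLC35D3 DN15765, -3.40 for SLC9A3R2, -3.29 for Slc10a7 and -3.09 for Slc35b2 DN13446.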

How the results depend on the processing

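The number of members called stayed within 1.5 times in every comparison and setting except between the sexes when only the adult libraries were fitted, where it fell from 188 to 111. Leaving out 1 library at a time gave 192 to 236 members between the 12 hpf hemispheres, 274 to 284 between whole embryos, 88 to 116 between egg and tadpole, 197 to 232 between larva and juvenile, 300 to 304 between 8-cell embryo and juvenile, 131 to 181 between the sexes, 364 to 371 over the stages and 0 to 0 between the 8-cell hemispheres. The replicate block gave 247 members between the 12 hpf hemispheres, where the numbers pair the hemispheres, 0 between the 8-cell hemispheres and 298 between whole embryos, where they do not. Of the 78 named differences, all 78 kept direction and call when any 1 library was left out and under quantile normalization. That scaling moved the balance of directions, as given beside each count. Depth is unknown for the hemisphere set, and values below about 1 RPKM rest on few reads.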
